A study of Mus musculus with 112 samples.

Results

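Progenitor cells and intestinal stem cells (ISCs) sorted from the small intestine of aged mice were compared by 3′-end RNA sequencing. The comparison took every aged library of the 2 sorted gates, 22 of the 112 libraries of the series: 10 of aged progenitors (5 from males and 5 from females) and 12 of aged ISCs (7 from males and 5 from females). Membership was fixed by the sample labels and used no measured value. The aged mice were 23 to 27 months old. The libraries came from 17 animals, of which 5 (3 males and 2 females) gave both gates, 5 gave progenitors only and 7 gave ISCs only. The closest other comparison was the same one in young mice of 2 to 3 months, with 10 progenitor and 11 ISC libraries. All mice of both ages carried the Lgr5-eGFP-IRES-CreERT2 allele on C57BL/6, in which green fluorescent protein (GFP) is made from the Lgr5 locus. Crypts were isolated from the proximal part of the small intestine after the villi had been scraped off, and both gates took live cells with high Epcam and low CD24. Progenitors had medium or low GFP and ISCs high GFP, so the gates are set by reporter level and the progenitor gate is not 1 defined cell type. No treatment was given in the labels to any of these groups.

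The crypts of the small intestine renew the epithelium throughout life. ISCs at the crypt base, which express the R-spondin receptor gene Lgr5, divide under Wnt signals from Paneth cells and the stroma. Their daughters are progenitors, also called transit-amplifying cells, which divide further up the crypt and commit to absorptive or secretory fates. Notch signalling between neighbours favours the absorptive fate, and cells that escape it express Atoh1 and become goblet, enteroendocrine, Paneth or tuft cells.

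Libraries held 2.48, 5.01 and 7.57 M (mega) counts in progenitors (lowest, median and highest) and 2.18, 4.10 and 5.55 M in ISCs. Mitochondrially encoded genes took 4.18 ± 1.31% of counts in progenitors and 5.63 ± 1.56% in ISCs (SD). On a principal component analysis the first component held 32.1% of the variance and separated the gates, with progenitors at 46.0 to 74.2 and ISCs at -57.3 to -26.1. The 2 ISC libraries nearest to the progenitors, Female_4 and Female_5 at -26.1 and -29.3, were also the only ISC libraries whose names carried no numeric ending, as was the case for 7 of 10 progenitor names, while the other ISC libraries lay between -57.3 and -42.1. The sources used here do not say what the ending stands for, and 7 ISC libraries but no progenitor library ended in 1. The balance of Xist and Eif2s3y matched the stated sex in 22 of 22 libraries. The labels name the animal of each library, so the spread between libraries is between animals.

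Of 12032 genes tested, 2214 were higher in progenitors (18.4%) and 2266 lower (18.8%), at an adjusted p below 0.05 in edgeR's quasi-likelihood test, which took the mean of the male and the female difference. A gene past that threshold is called higher or lower below, and counts of called list members are to be read against these shares. Fold changes are log2 values of progenitors over ISCs ± SE, levels are counts per M counts of the library (CPM) after TMM scaling, and 3 levels in a row are the lowest, the median and the highest library of a gate. Gates do not overlap where the progenitor libraries all lay above, or all below, the ISC libraries. Of the genes tested, 488 (4.06%) lay wholly above in progenitors and 212 (1.76%) wholly below, and cases of no overlap are to be read against these shares. Of the called genes, 907 were at least 2-fold higher and 897 at least 2-fold lower, and the median of all genes tested was -0.05. Without TMM scaling the split was 1780 higher and 2998 lower and the median -0.18, so the direction of small changes is relative to the scaling. In the 5 animals that gave both gates, whose libraries carried the same name ending in both, 1564 of the genes called higher were higher in 5 of 5 and 1257 of those called lower were lower in 5 of 5. Those libraries were part of the fit that made the calls, so this agreement is no independent check. The share with the same direction in 5 of 5 animals over all genes tested is not given. With the animal as a fixed block the counts were 1601 higher and 1289 lower, and with the name ending as a term they were 1457 higher and 1173 lower. In the first of these fits only the 5 animals with both gates inform the difference between the gates. In the second, the 7 ISC libraries ending in 1 had no progenitor library of the same ending. Whether calls lost in these fits, here and below, were lost for want of libraries was not tested.

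The levels of the genes that mark the gates went with the labels. Lgr5 (ENSMUSG00000020140, chr10:115450311-115587780, minus strand, GRCm38), whose locus drives the reporter used for sorting and which therefore checks the sort, had 0, 4.74 and 19.1 CPM in progenitors against 101, 138 and 188 CPM in ISCs. The gates did not overlap, and the log2 fold change was -4.59 ± 0.40 (adjusted p = 2.01e-08). Olfm4 (chr14:79984081-80023139, plus strand), a secreted glycoprotein of ISCs that the sort did not use, had 801, 1515 and 2229 CPM in progenitors against 10476, 13180.0 and 16677 CPM in ISCs, a log2 fold change of -3.23 ± 0.09 (adjusted p = 8.32e-25). The gates did not overlap for Olfm4, and it was lower in progenitors in each of the 5 animals with both gates. Muc2 (chr7:141690340-141754693, plus strand), the main gel-forming mucin of goblet cells, had 1263, 2392 and 4182 CPM in progenitors against 55.6, 78.1 and 204 CPM in ISCs, again with no overlap, and its log2 fold change was 4.71 ± 0.26 (adjusted p = 3.87e-11). In such sorted bulk samples a change in the share of cells of a type and a change in RNA per cell cannot be told apart.

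**Figure D1:**
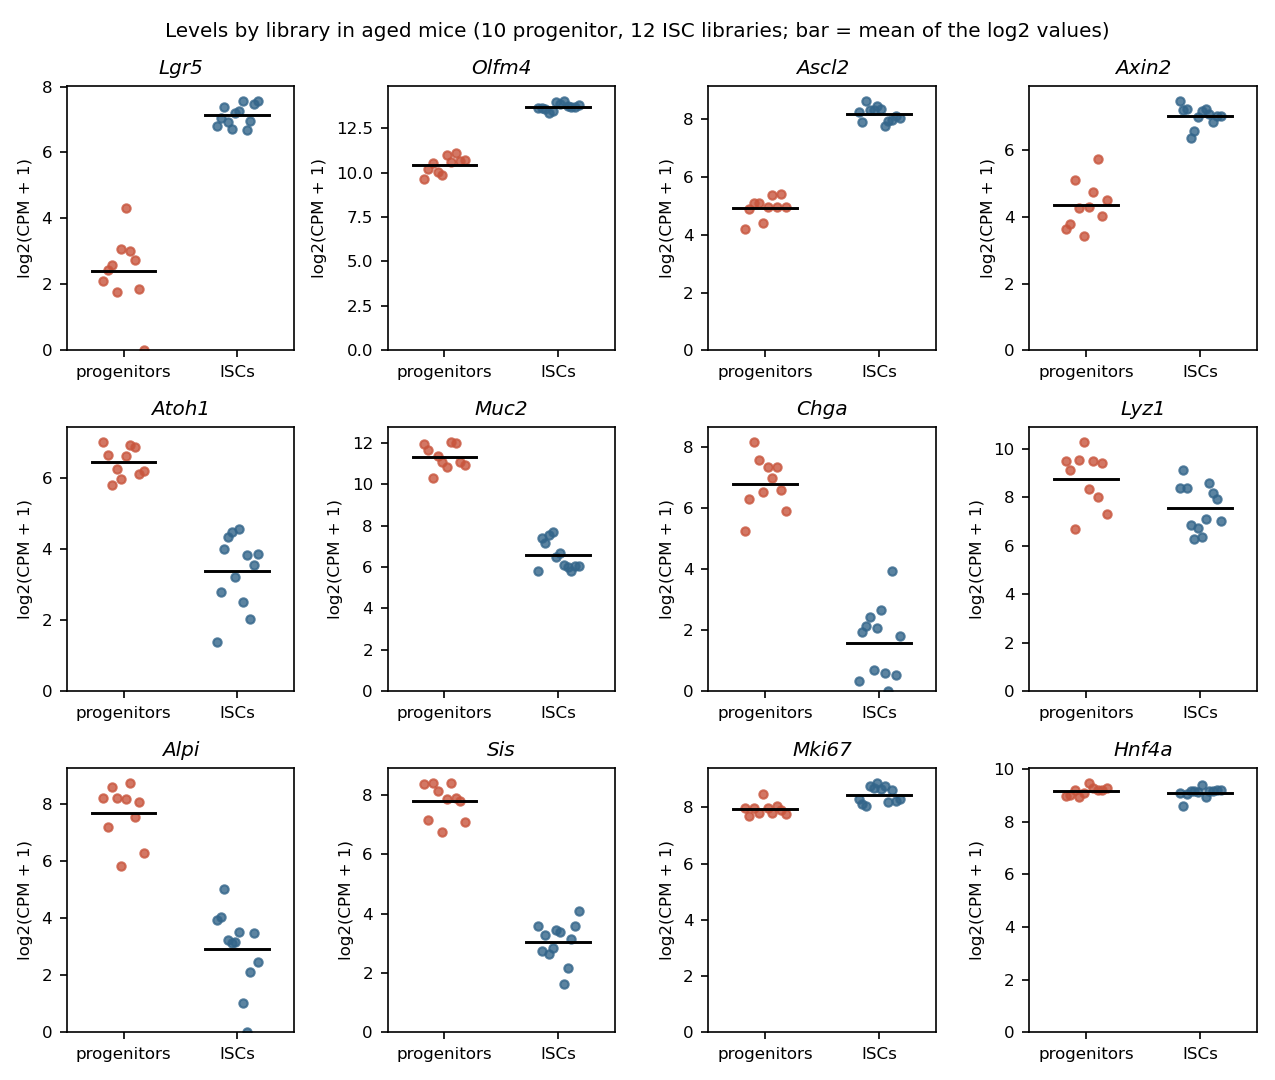
Levels of 12 genes, as log2(CPM + 1), in each aged library, with progenitors on the left and ISCs on the right of each panel and a bar at the mean of the log2 values. Lgr5, Olfm4, Ascl2 and Axin2 lie lower in all 10 progenitor libraries than in any ISC library, Atoh1, Muc2, Chga, Alpi and Sis lie higher, and Lyz1, Mki67 and Hnf4a overlap between the gates.

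All 23 tested genes of a list of 24 ISC markers were lower in progenitors, with a median log2 fold change of -2.77 against -0.05 over all genes tested. Lgr5 is 1 of the 23 and only checks the sort. Ascl2, the transcription factor that sets the ISC programme, had 17.3, 30.3 and 40.9 CPM in progenitors against 213, 286 and 391 CPM in ISCs, with no overlap, and a log2 fold change of -3.27 ± 0.13 (adjusted p = 1.84e-20). Slc12a2, a chloride cotransporter of the crypt base, averaged 141 ± 36.6 CPM in progenitors against 540.2 ± 89.9 CPM in ISCs (SD, n = 10 and 12). Its log2 fold change was -1.92 ± 0.11 and its gates did not overlap. Fstl1, a secreted follistatin-like protein, had the most negative value of the list, -5.38 ± 0.73, at 0, 0.264 and 6.02 CPM in progenitors against 1.41, 16.2 and 62.2 CPM in ISCs, and 2 progenitor libraries lay above the lowest ISC library. Gkn3 (-4.04), Tnfrsf19 (-3.38) and Slc14a1 (-3.33) fell by more than the list median. The smallest falls were those of Prom1 (-0.62) and of Cd24a (-0.53), which encodes the CD24 protein that both gates required to be low.

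Wnt pathway genes fell together with the ISC markers at several levels of the pathway. Among 13 tested receptors and co-receptors, 6 fell and 1 rose. Lgr5 is 1 of the 6 and only checks the sort, and the other 5 were Fzd7, Fzd2, Fzd6, Lgr4 and Ror2. Fzd7, a Frizzled receptor used by ISCs, had 4.16, 8.91 and 18.5 CPM in progenitors against 20.3, 47.9 and 66.0 CPM in ISCs, with no overlap, and a log2 fold change of -2.33 ± 0.22 (adjusted p = 1.39e-10). Fzd5, another Frizzled receptor, rose by 0.80 ± 0.14, at 97.2 CPM in progenitors against 56.8 CPM in ISCs on average, and the co-receptors Lrp5 and Lrp6 were not called (-0.25 and 0.02). Of 6 tested feedback inhibitors, 4 fell, with a list median of -1.94. Axin2, a scaffold of the beta-catenin destruction complex and a direct Wnt target, had 9.66, 18.4 and 52.1 CPM in progenitors against 81.9, 132 and 176 CPM in ISCs, with no overlap (log2 fold change -2.62 ± 0.21, adjusted p = 1.22e-11). Rnf43, the ubiquitin ligase that removes Frizzled from the surface, fell, at -2.31 ± 0.20 with no overlap either, and Nkd1 at -4.40 ± 0.67 with overlap. Among 9 nuclear factors, Tcf7 (-1.78), Bcl9 (-1.23), Bcl9l (-0.78) and the kinase gene Gsk3b (-0.91) fell, while Ctnnb1, which encodes beta-catenin, was not called at 751 ± 48.2 CPM in progenitors against 852 ± 80.7 CPM in ISCs. With the animal as a fixed block Bcl9 and Gsk3b lost their calls, at adjusted p = 0.305 and 0.219.

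Of 14 tested Wnt target genes of the crypt, 11 fell and 3 rose, with a median of -1.67. Sp5, a transcriptional repressor, had 6.96, 15.02 and 21.4 CPM in progenitors against 40.7, 85.5 and 139.9 CPM in ISCs, and Sox4, a transcription factor, had 17.3, 27.2 and 45.6 CPM in progenitors against 78.7, 122 and 179 CPM in ISCs. Neither gene's gates overlapped, and the log2 fold changes were -2.68 ± 0.19 and -2.12 ± 0.16. Myc fell, at -1.77 ± 0.18 (adjusted p = 8.27e-09), and Sox9 and Cd44 fell, at -1.57 ± 0.19 and -2.09 ± 0.22. The 3 that rose were Mmp7, a Paneth cell protease (2.7), and the G1 cyclins Ccnd1 (0.58) and Ccnd2 (0.36). Eph receptors and ephrins, Wnt-controlled genes that sort cells along the crypt, numbered 12 tested, of which 8 fell and 1 rose. Ephb3 had 1.23, 3.93 and 7.99 CPM in progenitors against 11.9, 43.2 and 57.5 CPM in ISCs, with no overlap (log2 fold change -3.12 ± 0.35, adjusted p = 7.11e-09), and Ephb2 fell, at -0.81 ± 0.13. Efnb2, the ligand that is opposed to these receptors in the crypt, was the member that rose (3.61 ± 0.54, 15.2 CPM in progenitors against 1.53 CPM in ISCs). The count of lower Eph genes was 5 with the animal as a fixed block, with the name ending as a term, with limma-voom, and without any 1 of ISC libraries Female_1 and Female_2 and progenitor libraries Female_4, Male_3, Male_4 and Male_5.

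Few Notch components were called, whereas most factors of the secretory fate were higher in progenitors. Of 16 tested receptors, ligands and modifiers 2 rose, 1 fell and 13 were not called. Notch1, a receptor, had 7.05, 14.2 and 33.3 CPM in progenitors against 33.9, 59.4 and 82.9 CPM in ISCs, with no overlap and a log2 fold change of -1.90 ± 0.23. The ligand gene Dll1 had 30.0, 77.5 and 109 CPM in progenitors against 35.0, 53.1 and 95.5 CPM in ISCs, with overlap (log2 fold change 0.35 ± 0.18, adjusted p = 0.137), and Dll4 was not called either (0.72 ± 0.33). Dll1 was called higher without the ISC library Female_2 (adjusted p = 0.0493) or the progenitor library Female_5 (adjusted p = 0.0466). Adam10, a protease that sheds the Notch ectodomain, rose by 0.52 ± 0.15. Of 4 tested genes listed as Notch targets 3 fell. They were Olfm4, given above as an ISC gene, Hes6, whose response to Notch was not tested here, and Hes1. Hes1, the repressor of Atoh1, had 10.2, 19.5 and 49.3 CPM in progenitors against 24.1, 34.8 and 51.9 CPM in ISCs, with overlap and a log2 fold change of -0.72 ± 0.23 (adjusted p = 0.0142). With the animal as a fixed block Hes1 and Adam10 lost their calls, at adjusted p = 0.194 and 0.178. With the name ending as a term both lost them too, at adjusted p = 0.268 and 0.153.

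Of 11 tested secretory lineage factors 8 rose, 1 fell and 2 were not called, with a median of 2.84. Atoh1, the master regulator of the secretory fate, had 55.1, 87.5 and 129 CPM in progenitors against 1.64, 11.97 and 22.7 CPM in ISCs, with no overlap (log2 fold change 2.94 ± 0.33, adjusted p = 2.05e-07). Spdef, a goblet and Paneth maturation factor, rose by 3.52 ± 0.44 and Gfi1, a repressor downstream of Atoh1, by 3.89 ± 0.54. Creb3l1, a membrane-bound transcription factor, had 57.4, 116 and 188 CPM in progenitors against 3.96, 9.96 and 20.97 CPM in ISCs, with no overlap and a log2 fold change of 3.46 ± 0.23. Foxa2, a forkhead factor, fell (-0.82 ± 0.20). Absorptive and intestinal identity factors went both ways, with 6 higher, 4 lower and 9 not called of 19. Hnf4a, the nuclear receptor that maintains enterocyte genes, had 489, 585 and 704 CPM in progenitors against 386, 567 and 673 CPM in ISCs, with overlap (log2 fold change 0.07 ± 0.08, adjusted p = 0.504). Its estimate turned to -0.05 without TMM scaling. Creb3l3, a lipid-responsive factor (3.78 ± 0.57), and Maf, a factor of the enterocyte programme (2.46 ± 0.40), rose most, and the vitamin D receptor gene Vdr fell (-0.65 ± 0.10).

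Goblet cell genes were higher in progenitors in 22 of 24 cases, with 1 lower and 1 not called, and had a median log2 fold change of 4.28. Zg16, a lectin of the mucus, had 2627, 6554 and 12059 CPM in progenitors against 23.3, 83.7 and 251 CPM in ISCs, with no overlap (log2 fold change 6.19 ± 0.39, adjusted p = 3.17e-10). Tff3, a trefoil peptide, averaged 6084 ± 2453 CPM in progenitors against 343 ± 172 CPM in ISCs, and Fcgbp, a mucus protein, 9624 ± 4371 CPM in progenitors against 459 ± 294 CPM in ISCs. Ccl9, a chemokine, and Klk1, a kallikrein protease, had log2 fold changes of 3.47 ± 0.18 and 2.95 ± 0.18, each with no overlap. The member that fell was Muc4, a membrane mucin (-0.72 ± 0.16). Summed over the 24 genes, the level was 15376, 32901 and 57926 CPM in progenitors against 1984, 2249.8 and 4391 CPM in ISCs. All 10 progenitor libraries lay above all ISC libraries (permutation test of the difference in means, two-sided, p = 2e-05, the smallest these resamples can give, and adjusted p = 4.67e-05 over 7 sums). The ISC libraries Female_4 and Female_5, which lay nearest to the progenitors on the first component, had the highest goblet sums of their gate, 3954 and 4391 CPM, against 1984 to 3502 CPM in the others.

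Genes of mature enterocytes were also mostly higher in progenitors. Of 15 tested brush border enzymes 12 rose, 1 fell and 2 were not called, with a median of 1.95. Alpi, the intestinal alkaline phosphatase, had 55.6, 279 and 429 CPM in progenitors against 0, 8.24 and 32.0 CPM in ISCs, with no overlap (log2 fold change 4.71 ± 0.48, adjusted p = 2.34e-07). Sis, sucrase-isomaltase, had 108, 234 and 339 CPM in progenitors against 2.11, 8.32 and 16.0 CPM in ISCs, with no overlap and a log2 fold change of 4.89 ± 0.30. The peptidase gene Dpp4 was not called (-0.08 ± 0.14). Of 13 microvillus genes 8 rose and 2 fell, among them Vil1, the actin bundler villin (0.77 ± 0.08), and Cdhr5, a microvillus link protein (1.68 ± 0.11), both with no overlap. Myo7b, the motor of those links, fell (-0.77 ± 0.11).

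Of 17 tested nutrient and ion transporters 15 rose and none fell, with a median of 2.39. Slc51a, a subunit of the bile acid exporter, had 138, 186 and 301 CPM in progenitors against 2.12, 10.2 and 28.6 CPM in ISCs, with no overlap (log2 fold change 4.15 ± 0.19, adjusted p = 3.14e-18). Slc7a9, a cystine and basic amino acid carrier, rose by 2.47 ± 0.17. Slc5a1, the sodium-glucose cotransporter, was not called (0.31 ± 0.15). Of 21 genes of lipid absorption 16 rose and none fell, with a median of 1.48. Mttp, the transfer protein that loads chylomicrons, averaged 322 ± 55.5 CPM in progenitors against 77.3 ± 19.3 CPM in ISCs, with no overlap (log2 fold change 2.05 ± 0.13). Npc1l1, the cholesterol uptake transporter, rose by 2.08 ± 0.17, Apoa1 by 4.09 ± 0.50 and Fabp1 by 4.05 ± 0.48.

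Enteroendocrine genes had the largest list median. Of 14 tested hormones and granule proteins 13 rose and none fell, with a median of 5.39. Chga, chromogranin A, had 37.2, 112 and 287 CPM in progenitors against 0, 2.68 and 14.4 CPM in ISCs, with no overlap (log2 fold change 5.46 ± 0.58, adjusted p = 4.20e-07). Cck, cholecystokinin, had 5.96, 66.2 and 119 CPM in progenitors against 0, 0 and 13.2 CPM in ISCs, with overlap, and Ghrl, ghrelin, 0, 14.7 and 70.8 CPM in progenitors against 0, 0 and 2.74 CPM in ISCs, with overlap as well. Their log2 fold changes were 6.39 ± 0.87 and 7.01 ± 1.41, and the call of Ghrl was lost with limma-voom (4.29, adjusted p = 0.0516). Chgb and Sct, chromogranin B and secretin, rose by 4.69 ± 0.50 and 4.01 ± 0.46 with no overlap. The hormone and granule genes summed to 387, 886 and 1731 CPM in progenitors against 1.41, 45.9 and 76.3 CPM in ISCs, with no overlap (permutation test, adjusted p = 4.67e-05). Of 13 enteroendocrine factors only 4 passed the filter on low counts, and 3 of these rose. Neurod1 had 1.85, 8.76 and 29.1 CPM in progenitors against 0, 0 and 3.43 CPM in ISCs (log2 fold change 6.30 ± 0.95). Rfx6, an endocrine winged-helix factor, had 0 counts in all 12 ISC libraries and 0, 4.39 and 8.01 CPM in progenitors, at least 72.3-fold higher when 3 counts over the whole ISC gate are taken as the floor. Rfx6 could pass the filter only through progenitor libraries, which fixed its direction in advance. Neurod1, Cck and Ghrl, at a median of 0 CPM in ISCs, may have passed in the same way. The counts and medians of both enteroendocrine lists are limited by this. With no filter on low counts 10 factors were called higher, and with gate as the only term, which asks low genes to pass in more libraries, none was. Leaving out 1 of ISC libraries Female_1 to Female_5 or progenitor libraries Female_1, Female_2, Female_5, Male_3 and Male_5 gave 5 or 6. The list median of 5.31 became 5.24 with Rfx6 at that bound. Pax6 rose by 4.31 ± 1.05 and lost its call with the animal as a fixed block (adjusted p = 0.395).

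Paneth cell genes were raised less evenly, and tuft cell genes were close to their filter. Of 17 tested Paneth genes 7 rose and 10 were not called, with a median of 1.05. Lyz1, lysozyme, had 103, 614 and 1249 CPM in progenitors against 77.7, 190.0 and 565 CPM in ISCs, with overlap (log2 fold change 1.18 ± 0.43, adjusted p = 0.0361), and its call was lost in 17 of 35 alternative fits, 11 of which left out 1 library: ISC Male_1, Male_2, Male_3, Male_7, Female_4 and Female_5 and progenitor Male_2, Male_4, Female_1, Female_4 and Female_5. Itln1, an intelectin, rose by 2.26 ± 0.31 and Mmp7 by 2.7 ± 0.32. Defensin genes, near-identical copies between which counts may be split, summed to 63.1 to 973 CPM in progenitors against 99.9 to 711 CPM in ISCs. The whole list summed to 353, 2284 and 3574 CPM in progenitors against 326, 639.9 and 1724 CPM in ISCs, with overlap (permutation test, adjusted p = 0.00193). Without ISC libraries Female_4, Female_5 or Male_3, or progenitor libraries Female_1, Female_4, Female_5, Male_2, Male_3 or Male_4, each left out in turn, 3 or 4 Paneth genes were called, and without the animals of 26 and 27 months 3. Other settings went the other way. With the animal as a fixed block 9 were higher (median 2.40), and with the name ending as a term 10 (median 2.43). The Lyz1 estimate ran from 0.72 to 2.43 over all fits. Of 18 tuft cell genes 7 were tested and 1 rose, Avil (1.51 ± 0.52). Dclk1, the usual tuft marker, was below the filter at 0, 0.134 and 1.88 CPM in progenitors against 0, 0 and 1.72 CPM in ISCs. The tuft sum averaged 29.0 ± 4.33 CPM in progenitors against 23.45 ± 10.2 CPM in ISCs (permutation test, adjusted p = 0.153, or 0.00764 without the ISC library Female_3), with Il25 and Gnat3 at 0.

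Immune and stromal markers were near 0 in both gates with the following exceptions. The 25 immune genes summed to 5.27, 10.2 and 21.8 CPM in progenitors against 2.64, 13.45 and 436 CPM in ISCs (permutation test, adjusted p = 0.318), with Cd3e, Cd3d, Gzmb and Tyrobp at 0 in all 22 libraries. The highest value was that of the ISC library Female_2, of which Igkc made 249 and Igha 164 CPM, and the other 11 ISC libraries averaged 13.0 ± 7.21 CPM. Leaving out that library gave 2147 genes higher and 2081 lower. The 16 stromal and endothelial genes summed to 18.2, 40.3 and 122 CPM in progenitors against 1.62, 8.80 and 21.7 CPM in ISCs (permutation test, adjusted p = 4.67e-05). Vim, vimentin, an intermediate filament gene, made 42.9 CPM of the progenitor mean, and the other genes of the list summed to 6.54 ± 4.73 CPM in progenitors against 8.76 ± 5.28 CPM in ISCs. Col3a1, Lum, Pdgfra, Des, Cdh5, Sparc and Kdr were at 0.

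**Figure D2:**
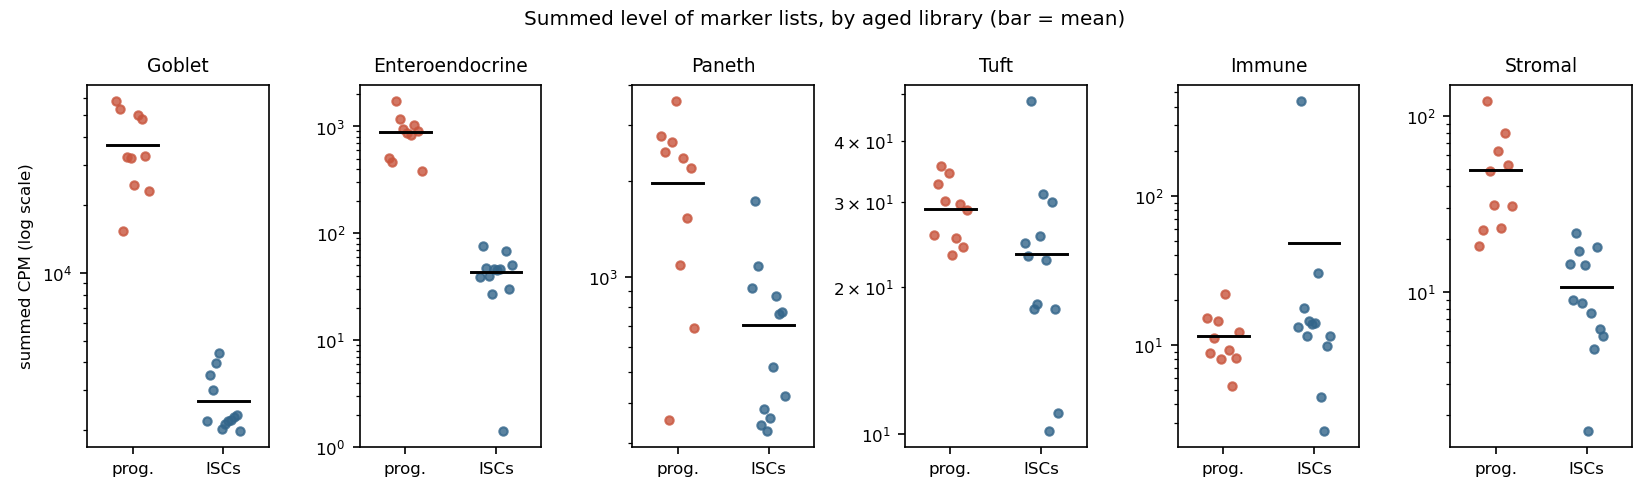
Summed CPM, on log axes, of the marker lists of 6 cell types in each aged library, with progenitors on the left and ISCs on the right of each panel and a bar at the mean. Goblet and enteroendocrine sums do not overlap between the gates, Paneth, tuft and stromal sums overlap, and 1 ISC library stands at 436 CPM for the immune list.

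Mitotic genes were lower in progenitors almost throughout their list. Of 37 tested genes of mitosis and G2/M 36 fell and 1, Birc5, was not called (-0.27 ± 0.11), with a median of -0.83. Top2a, the topoisomerase of chromosome condensation, had 140.5, 174 and 200.4 CPM in progenitors against 253, 317 and 415 CPM in ISCs, with no overlap (log2 fold change -0.86 ± 0.09, adjusted p = 4.50e-10). Ckap2, a spindle protein, had 11.99, 25.6 and 41.4 CPM in progenitors against 56.3, 78.8 and 96.5 CPM in ISCs, with no overlap and a log2 fold change of -1.51 ± 0.16. Mki67, the proliferation antigen, had 205, 245 and 352 CPM in progenitors against 261, 349 and 465 CPM in ISCs, with overlap, and a log2 fold change of -0.51 ± 0.11 (adjusted p = 0.000293). Mki67 lost its call among the animals that gave 1 gate only (adjusted p = 0.168). S phase and replication genes moved less, with 12 of 38 lower, 1 higher and 25 not called, and a median of -0.25. Mcm2, a replicative helicase subunit, fell, at -0.60 ± 0.11 and Dut, a dUTPase, at -0.58 ± 0.12, while Pcna was not called (-0.17 ± 0.13) and Rrm2, a ribonucleotide reductase subunit, rose (0.48 ± 0.18). In the animals that gave 1 gate 7 S phase genes were lower and Dut lost its call (-0.35, adjusted p = 0.0956). With the animal as a fixed block 17 S phase genes were lower (median -0.45), and with the name ending as a term 8 (median -0.34). Among 14 cell cycle inhibitors 3 rose and 2 fell, near the shares called over all genes tested (18.4% and 18.8%). Cdkn2b had 101, 143 and 194 CPM in progenitors against 0, 5.97 and 33.8 CPM in ISCs, with no overlap (log2 fold change 4.37 ± 0.59, adjusted p = 9.10e-06). Cdkn1a, the p21 inhibitor, had 34.5, 62.0 and 105 CPM in progenitors against 0, 12.3 and 23.0 CPM in ISCs, with no overlap and a log2 fold change of 2.42 ± 0.42. Cdkn2a had no count in these libraries.

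Genes of protein folding in the endoplasmic reticulum (ER) were higher in progenitors. Of 33 tested genes of the unfolded protein response 29 rose, none fell and 4 were not called, with a median of 0.97. The 3 with the smallest p were Pdia6, Hspa5 and Dnajc3. Hspa5, the ER chaperone BiP, had 1013, 1534 and 2041 CPM in progenitors against 476, 648 and 888 CPM in ISCs, with no overlap (log2 fold change 1.23 ± 0.10, adjusted p = 1.62e-12). Pdia6, a disulfide isomerase, had 492, 624 and 787 CPM in progenitors against 189, 262 and 332 CPM in ISCs, with no overlap and a log2 fold change of 1.28 ± 0.10. Dnajc3, a co-chaperone that also holds back the kinase PERK, rose by 1.36 ± 0.12 with no overlap. Xbp1, the transcription factor of the response, rose by 1.23 ± 0.11, and Ern2, the goblet cell form of its activating nuclease, by 2.54 ± 0.44. Kdelr3, a retrieval receptor, had the largest value of the list (3.76 ± 0.59), and neither Pdia4 (0.22 ± 0.20) nor Eif2ak3, which encodes PERK (0.36 ± 0.24), was called. The goblet sum was higher in the same libraries, 37052 ± 14431 CPM in progenitors against 2685 ± 826 CPM in ISCs, and its part in these changes was not tested.

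The ER stress element, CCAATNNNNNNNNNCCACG, is the site through which the factors ATF6 and NFY are known to act together. It was searched on both strands in the 250 bases before the RefSeq start (GRCm38.p6) of 27 of the 34 list genes that had a promoter entry. It was present in 9 of these 27 promoters (33.3%), against 35 of 27025 genes with an entry (0.13%), and its first letters are themselves a CCAAT box. The list was made of genes known for the unfolded protein response, so this excess describes the list and not the change between the gates. Of all 33 tested genes of the list 29 rose, with or without the element. The 9 genes were Hspa5, Hsp90b1, Dnajc3, Pdia6, Calr, Canx, Creld2, Syvn1 and Derl3, of which the first 8 rose and Derl3 was not called (-0.69 ± 0.78). The promoters of the 3 genes with the smallest p are shown because each holds the element, which is in capitals and starts 65, 98 and 105 bases before the start in Hspa5, Pdia6 and Dnajc3.
Hspa5 (chr2:34771840-34772089, plus strand): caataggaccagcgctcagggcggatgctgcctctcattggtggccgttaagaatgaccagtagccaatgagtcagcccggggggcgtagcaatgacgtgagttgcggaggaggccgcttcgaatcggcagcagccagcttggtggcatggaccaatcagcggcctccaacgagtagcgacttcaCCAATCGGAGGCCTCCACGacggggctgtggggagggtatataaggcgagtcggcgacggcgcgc
Pdia6 (chr12:17266339-17266588, plus strand): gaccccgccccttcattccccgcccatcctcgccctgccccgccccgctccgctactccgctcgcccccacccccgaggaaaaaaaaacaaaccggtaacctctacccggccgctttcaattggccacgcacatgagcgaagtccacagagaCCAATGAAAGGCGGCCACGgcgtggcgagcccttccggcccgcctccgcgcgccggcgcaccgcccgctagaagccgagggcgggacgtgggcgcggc
Dnajc3 (chr14:118937682-118937931, plus strand): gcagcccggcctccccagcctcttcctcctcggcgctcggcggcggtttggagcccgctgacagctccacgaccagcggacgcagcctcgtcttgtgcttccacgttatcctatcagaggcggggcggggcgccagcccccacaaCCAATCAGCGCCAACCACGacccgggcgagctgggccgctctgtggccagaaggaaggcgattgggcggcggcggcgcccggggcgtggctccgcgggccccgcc
Such a match describes the letters of the window and was not tested for binding. The same search with the sterol element TCACNCCAC found it in 1 of 19 promoters of the cholesterol list (5.26%, against 1.22% of genes with an entry), that of Hmgcs1. The TCF/LEF core, CTTTG followed by 2 letters that are each A or T, was present in 3 of 15 promoters of ISC markers (20%, against 16.8% of genes with an entry).

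**Figure D3:**
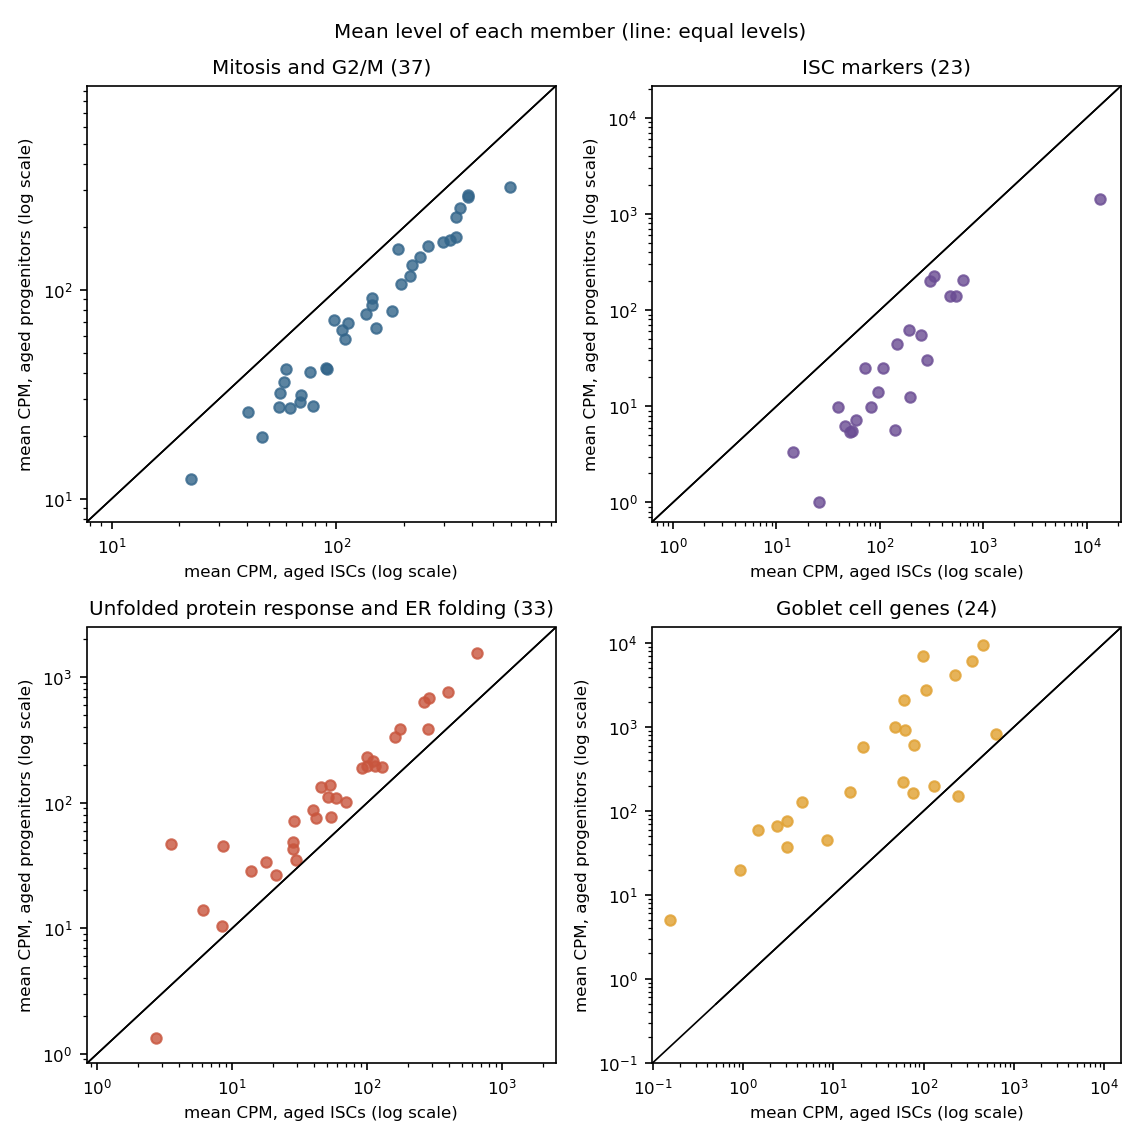
Mean CPM of each tested member of 4 lists in aged progenitors (vertical, log scale) against aged ISCs (horizontal, log scale), with a line at equal levels. All 37 mitotic genes and all 23 ISC markers lie below the line, whereas 32 of 33 genes of the unfolded protein response and 23 of 24 goblet genes lie above it.

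Ribosome genes were called lower in progenitors more often than higher, by small amounts. Of 28 genes of ribosome biogenesis 17 fell and none rose, with a median of -0.45. Ncl, nucleolin, had 252, 335 and 419.9 CPM in progenitors against 471, 571 and 710.2 CPM in ISCs, with no overlap (log2 fold change -0.80 ± 0.10, adjusted p = 4.53e-08), and Npm1, nucleophosmin, and Polr1b, a subunit of RNA polymerase I, fell, at -0.58 ± 0.10 and -0.73 ± 0.14. Of 81 tested cytosolic ribosomal protein genes 40 fell, 2 rose and 39 were not called, with a median of -0.28. Rps9 averaged 2703 ± 283 CPM in progenitors against 3853 ± 354 CPM in ISCs (log2 fold change -0.49 ± 0.07, adjusted p = 2.53e-07). With the name ending as a term 8 biogenesis genes and 18 ribosomal protein genes were lower. With the animal as a fixed block 10 biogenesis genes were lower, and 8 in the animals that gave 1 gate. The count of higher ribosomal protein genes was unstable. It was 13 without the ISC library Female_4, 9 when the 26- and 27-month animals were left out and 17 in the animals that gave 1 gate, where 38 were lower.

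Metabolic lists were mostly higher in progenitors. Of 78 tested nuclear-encoded respiratory chain genes 57 rose and none fell, with a median of 0.43. In the animals that gave 1 gate 37 were higher and 1 lower. Cox5a, a subunit of cytochrome oxidase, had 1133, 1434 and 1956 CPM in progenitors against 482, 766 and 956 CPM in ISCs, with no overlap (log2 fold change 0.93 ± 0.09, adjusted p = 1.88e-10). The mitochondrially encoded genes did not go with them: 1 of 8 tested, mt-Nd6, rose (0.66 ± 0.20) and their sum averaged 43750 ± 13485 CPM in progenitors against 54459 ± 15795 CPM in ISCs (permutation test, adjusted p = 0.147, or 0.0399 with library totals in place of TMM scaling). Of 26 genes of fatty acid oxidation and ketogenesis 13 rose and 1 fell. Cpt2 and Cpt1a, the mitochondrial carnitine palmitoyltransferases, rose by 0.99 ± 0.13 and 0.80 ± 0.11.

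Of 26 tested genes of cholesterol synthesis and sterol control 19 rose and none fell, with a median of 0.73. Cyp51, a sterol demethylase, had 105, 119.7 and 149.8 CPM in progenitors against 24.8, 40.4 and 79.5 CPM in ISCs, with no overlap (log2 fold change 1.48 ± 0.16, adjusted p = 2.09e-09). Hmgcs1 and Fdps, enzymes of the mevalonate pathway, rose by 1.37 ± 0.16 and 1.34 ± 0.13 with no overlap, and the sterol regulator Srebf2 was not called (0.20 ± 0.11). Of 24 genes of glycolysis 14 rose and 1 fell, with a median of 0.81. Pfkp, a phosphofructokinase isoform, had 178, 219.6 and 287 CPM in progenitors against 17.1, 36.6 and 67.5 CPM in ISCs, with no overlap (log2 fold change 2.52 ± 0.15, adjusted p = 1.80e-15), and Ldha, lactate dehydrogenase A, rose by 1.18 ± 0.10. The hexokinase gene Hk2 fell (-1.29 ± 0.29). Of 33 genes of xenobiotic metabolism 29 rose and 1 fell, with a median of 1.81. Cyp4f14, a fatty acid hydroxylase, had 365, 419 and 525 CPM in progenitors against 31.5, 65.4 and 105 CPM in ISCs, with no overlap (log2 fold change 2.69 ± 0.14, adjusted p = 1.04e-16), and Ces2e, a carboxylesterase, rose by 2.33 ± 0.14. Serine, one-carbon and polyamine genes went both ways, with 6 lower and 2 higher of 20. Paics, an enzyme of purine synthesis, fell, at -1.09 ± 0.12, and Odc1, which makes putrescine, rose by 0.98 ± 0.24.

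Defence genes were split. Of 15 tested antimicrobial and mucosal genes 6 rose and 4 fell. Reg4 and Reg1, lectins of the Reg family, had log2 fold changes of 5.15 ± 0.41 and 3.44 ± 0.27, each with no overlap, and the bactericidal lectin genes Reg3g and Reg3b were not called (1.27 ± 0.58 and 1.5 ± 0.61). Pigr, the receptor that carries IgA across the epithelium, rose by 0.59 ± 0.08. The endotoxin co-receptor gene Cd14 (-1.83 ± 0.27), the nitric oxide synthase gene Nos2 (-1.77 ± 0.47), the NADPH oxidase gene Nox1 (-1.74 ± 0.44) and its organiser Noxo1 (-0.83 ± 0.13) fell. Genes of MHC class II presentation fell in 4 of 7 cases and had estimates below 0 in the others, with a median of -0.54. H2-Eb1 had 99.8, 245 and 515 CPM in progenitors against 322, 572 and 887 CPM in ISCs, with overlap (log2 fold change -1.02 ± 0.23, adjusted p = 0.00186), and Cd74, the invariant chain, 164, 311 and 627 CPM in progenitors against 213, 398 and 692 CPM in ISCs, with overlap and no call (-0.45 ± 0.24, adjusted p = 0.151, or 0.0409 without the progenitor library Male_5). Ciita, the master regulator of the class, fell, at -1.14 ± 0.31 and lost its call with the animal as a fixed block (adjusted p = 0.329). With the name ending as a term none of the 7 was called, and in the animals that gave 1 gate 1 was.

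Of 23 tested genes of MHC class I presentation 10 rose and 3 fell, with a median of 0.33. Counts of H2-Q and H2-T genes may be split between near-identical copies. H2-T3, a non-classical class I gene, had 123, 141 and 198 CPM in progenitors against 63.8, 86.5 and 121 CPM in ISCs, with no overlap (log2 fold change 0.74 ± 0.12), and the immunoproteasome gene Psmb8 rose by 0.63 ± 0.17, while H2-K1 and B2m were not called (0.25 ± 0.13 and 0.13 ± 0.10). Nlrc5, the class I transactivator, fell (-1.77 ± 0.49). With the name ending as a term 6 genes of the list were higher and none lower, and without ISC Female_2 or progenitor Female_3, Male_3 or Male_4 only 1 was lower. Interferon-stimulated genes had no common direction, with 8 higher, 5 lower and 20 not called of 33. With the animal as a fixed block 5 were higher and 2 lower, with the name ending as a term 6 and 2, and in the animals that gave 1 gate 5 and 5. Ifitm3, a membrane protein that blocks virus entry, had 84.5, 152 and 301 CPM in progenitors against 459, 583 and 1008 CPM in ISCs, with no overlap (log2 fold change -1.94 ± 0.19, adjusted p = 2.63e-08). Ly6a, a surface protein that also marks regenerating epithelium, rose (3.37 ± 0.63) and Ifit1, an antiviral gene, rose at low levels (4.74 ± 0.89, 3.77 CPM in progenitors against 0.0980 CPM in ISCs), a call lost with the animal as a fixed block (adjusted p = 0.0858). Of 21 immediate early and stress genes 4 fell and none rose, and the share that fell is near the 18.8% of all genes tested. Jun had 17.98, 40.9 and 91.8 CPM in progenitors against 72.6, 170.0 and 442 CPM in ISCs, with overlap (log2 fold change -2.13 ± 0.27, adjusted p = 2.52e-06), and Fos was not called (-0.41 ± 0.24). With the animal as a fixed block or the name ending as a term 1 gene of the list was called lower, and without the ISC library Female_2 there were 2.

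Among the remaining lists, 18 genes of the BMP and TGF-beta response had 3 higher and 1 lower, shares not above those of all genes tested. Id3, a BMP target, had 293, 386 and 472 CPM in progenitors against 157, 221 and 297 CPM in ISCs, with overlap (log2 fold change 0.75 ± 0.11, adjusted p = 1.39e-06), and Id1 was not called (0.13 ± 0.11). Of 16 claudins and tight junction genes 5 rose and 3 fell, Cldn15 (0.51 ± 0.08) and Cldn3 (0.52 ± 0.08) among the first and Cldn2, the leaky claudin of the crypt, among the second (-0.87 ± 0.10). Only 1 junction gene was called lower with the animal as a fixed block, with the name ending as a term or without ISC Female_2. Of 12 tested regeneration-associated genes 8 rose and 2 fell, with a median of 1.74. None was called lower with the animal as a fixed block, with the name ending as a term, or without any 1 of ISC libraries Female_2 and Male_6 and progenitor library Female_5, while 8 were higher in each of these fits. Anxa2, annexin A2, had 595, 781 and 928 CPM in progenitors against 90.0, 127 and 148 CPM in ISCs, with no overlap (log2 fold change 2.67 ± 0.10, adjusted p = 1.36e-21), and Krt19 and S100a6 rose by 1.32 ± 0.07 and 5.63 ± 0.50. Clu, the clusterin gene that marks revival stem cells, was not called (-1.95 ± 0.92, 1.17 CPM in progenitors against 2.89 CPM in ISCs). Of 19 p53 targets and senescence genes 4 rose and 3 fell, near the shares called over all genes tested (18.4% and 18.8%). Among them were Cdkn1a and the death receptor gene Fas (3.89 ± 0.72) and, lower, Trp53 itself (-0.93 ± 0.20). Only 1 gene of that list was lower with the name ending as a term or without the animals of 26 and 27 months.

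**Figure D4:**
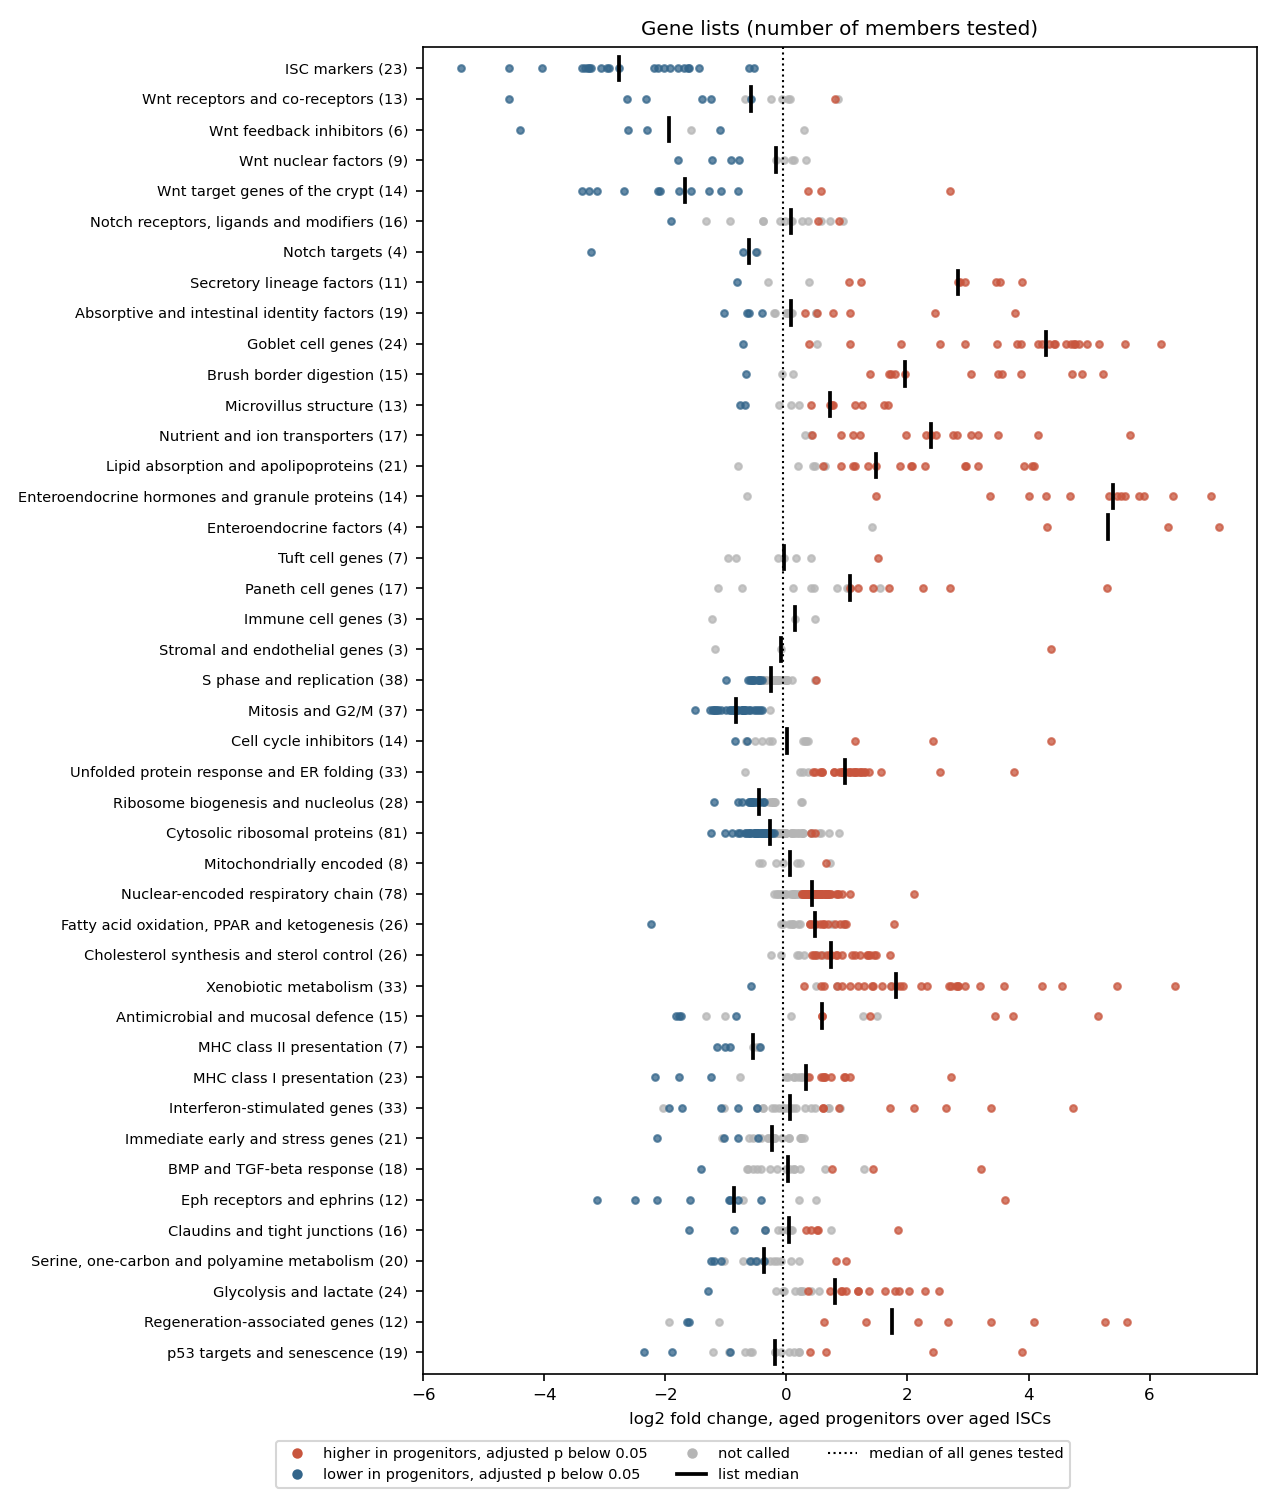
Log2 fold change of aged progenitors over aged ISCs for the tested members of 43 gene lists, 1 point per gene coloured by call, with a black tick at the list median and a dotted line at the median of all genes tested (-0.05). The medians run from -2.77 for ISC markers to 5.39 for enteroendocrine hormones and granule proteins.

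The largest called changes outside these lists came at low levels in 1 gate. Afp, alpha-fetoprotein, a serum protein of the fetal gut and liver, had 0 counts in all 12 ISC libraries and 0.441, 65.0 and 194 CPM in progenitors, at least 1241-fold higher with 3 counts over the ISC gate as the floor. Afp could pass the filter on low counts only through progenitor libraries, which fixed its direction in advance. Slc5a11, an inositol transporter, had 4.66, 8.29 and 20.8 CPM in progenitors against 0, 0 and 3.78 CPM in ISCs, with no overlap (log2 fold change 6.41 ± 0.90, adjusted p = 8.52e-07). At a median of 0 CPM in ISCs, Slc5a11 may have passed in the same way. Bcas1os1 rose by 7.29 ± 0.76. Its name marks it as an opposite-strand transcript of Bcas1, a goblet list gene that rose too (5.59 ± 0.67), and without knowing whether strand was used in counting their reads cannot be told apart. In the other direction, Kif12, a kinesin, had 0, 1.48 and 5.78 CPM in progenitors against 18.4, 46.3 and 77.1 CPM in ISCs, and Ccdc3, a secreted coiled-coil protein, 0, 1.23 and 3.52 CPM in progenitors against 11.3, 23.1 and 64.3 CPM in ISCs. Neither overlapped, and the log2 fold changes were -4.46 ± 0.43 and -4.19 ± 0.45. Gramd1a, a sterol transfer protein (-4.88 ± 0.60), and Cbs, cystathionine beta-synthase (-4.10 ± 0.62), were at a median of 0.193 and 0.110 CPM in progenitors against 10.2 and 11.9 CPM in ISCs. Genes this low in progenitors may have passed the filter only through ISC libraries.

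Both sexes had calls in both directions. Males alone had 1585 genes higher and 1293 lower and females alone 1380 higher and 1237 lower. The male count of 2878 called genes became 1545 when the 26- and 27-month animals were left out. Those 3 animals were all male, gave both gates and were the only aged animals whose library names ended in 2. Leaving them out took 3 of the 5 male progenitor libraries. Age, name ending and number of libraries thus changed together, and which of them mattered was not tested. Estimates of opposite sign in the sexes were found for 6 called genes. The male minus female difference was called for 1 gene of 12032 (0.00831%), while 573 genes had an unadjusted p below 0.05. That gene was Rap1gap (chr4:137664726-137729861, plus strand), a GTPase activator for the small G protein RAP1. On the scaling over all 43 libraries it had 60.0, 102 and 119 CPM in male progenitors against 0.475, 3.22 and 4.10 CPM in male ISCs, and 55.1, 97.0 and 141 CPM in female progenitors against 9.93, 14.97 and 23.2 CPM in female ISCs. Progenitor levels overlapped between the sexes, and every female ISC library lay above every male ISC library. The log2 fold change was 5.05 in males and 2.68 in females, a difference of 2.37 (adjusted p = 0.025). The call was lost with limma-voom (adjusted p = 0.851), when the 26- and 27-month animals were left out (adjusted p = 0.126) and in 11 of 22 fits that left out 1 library, at adjusted p = 0.0504 to 0.123. The libraries left out were ISC Male_6, Female_1 and Female_5 and progenitor Male_2, Male_3, Male_4, Male_5, Female_2, Female_3, Female_4 and Female_5.

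In young mice the same comparison called 2340 of 11776 genes higher (19.9%) and 2392 lower (20.3%). The ages share no library, and of 11613 genes tested in both, 1793 were higher in both, 82.6% of those higher in aged and 77.2% of those higher in young mice. Of the genes lower in aged mice 1618 were lower in young mice too, 72.8% of the aged and 68.6% of the young genes, and 0 were called in opposite directions. Across these genes, which are not independent, the log2 fold changes of the ages had r = 0.89, given as a description. Values in young mice were -4.53 ± 0.28 for Lgr5, 4.95 ± 0.35 for Muc2 and 2.75 ± 0.31 for Atoh1. The mitotic list had 29 of 37 lower and a median of -0.48 in young mice, and Mki67 was not called there (-0.28 ± 0.20). The median aged minus young difference of that list was -0.35 and none of its genes was called for it. The ISC markers had a median of -2.34 in young mice and the goblet genes 4.21.

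The aged minus young difference itself was called higher for 0 (0%) and lower for 2 (0.0158%) of 12680 genes over all 43 libraries, with 608 genes at an unadjusted p below 0.05. DESeq2 and limma-voom also gave 0 higher and 2 lower. 5330417C22Rik (chr3:108455694-108536536, minus strand), a gene named only by a clone identifier in the files, had 83.0, 122 and 170.4 CPM in aged progenitors against 39.3, 66.3 and 101 CPM in aged ISCs. In young mice it had 56.8, 123 and 149.6 CPM in progenitors against 10.6, 22.3 and 38.5 CPM in ISCs. The log2 fold change was 0.87 ± 0.15 in aged and 2.27 ± 0.18 in young mice, a difference of -1.39 (adjusted p = 0.00491). Progenitor levels overlapped between the ages, and the ISC libraries of aged mice all lay above those of young mice. Ly6e (chr15:74955051-74959905, plus strand), a surface protein of the Ly6 family induced by interferon, had 831, 1079 and 1242 CPM in aged progenitors against 912, 1041 and 1377 CPM in aged ISCs. In young mice it had 446, 507 and 643 CPM in progenitors against 255, 346 and 461 CPM in ISCs. Its log2 fold change was -0.06 ± 0.09 in aged and 0.59 ± 0.09 in young mice, a difference of -0.64 (adjusted p = 0.0201), and both gates of aged mice lay above both gates of young mice. In each of the 5 aged animals with both gates Ly6e was nevertheless higher in progenitors. The Ly6e call was lost in 6 of 43 fits that left out 1 library, at adjusted p = 0.0529 to 0.077. These were aged ISC Female_1, aged progenitor Male_5 and Female_3, young ISC Male_1 and Male_4 and young progenitor Female_1. The aged minus young difference was not fitted with the name ending or the animal as a fixed term. In the aged comparison alone those terms turned the Ly6e estimate to 0.122 and 0.190, neither called.

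**Figure D5:**
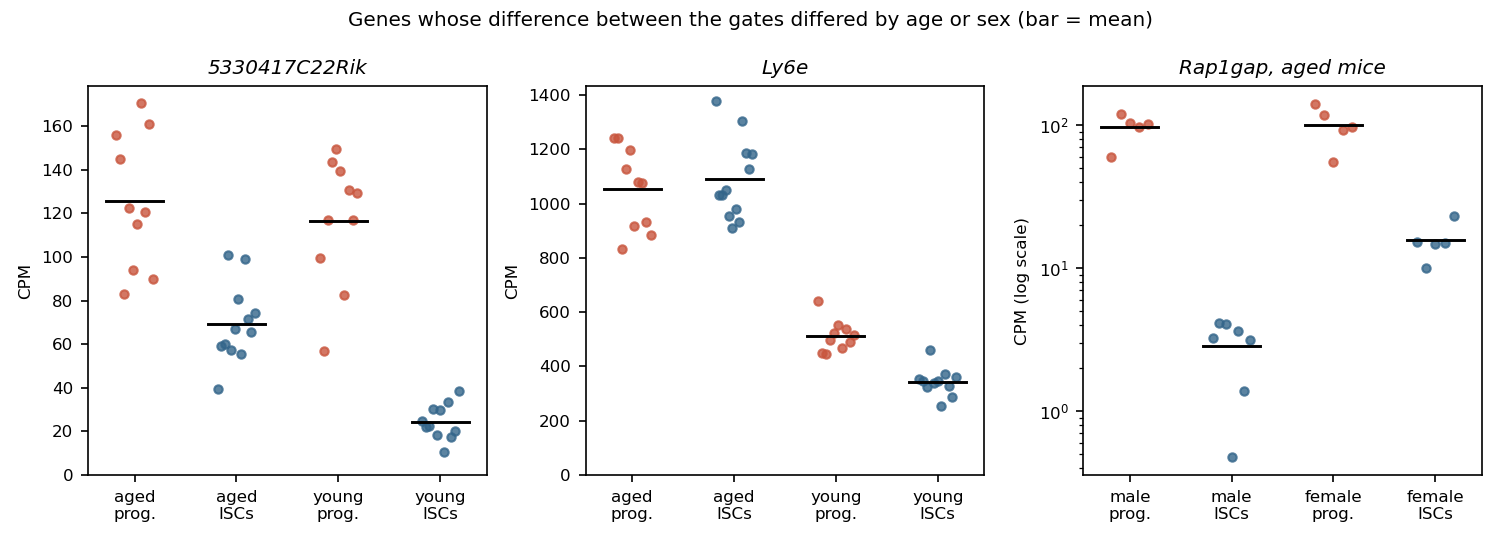
CPM in each library of 5330417C22Rik and Ly6e in aged and young progenitors and ISCs, and of Rap1gap on a log axis in aged progenitors and ISCs of each sex, with a bar at the mean. Aged ISCs lie above young ISCs for the first 2 genes, and female ISCs above male ISCs for Rap1gap.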

How the data were processed

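SC3-seq libraries (a method that reads the 3′ ends of transcripts) of sorted cells had been sequenced on an Illumina NextSeq, per the labels' protocols. The authors deposited raw counts per gene, 1 column per library and not pooled, and these counts were the input of every test. Per the submitters' processing notes the tools were cutadapt 3.0, STAR 2.7.9a, HTSeq 0.13.5 and DESeq2 1.30.1 on build mm10, and which annotation was counted, and whether strand was used, are not stated there. A deposited CPM table was not used. Of 32285 genes listed, 127 without a symbol kept their identifier, and 13357 had no count in the 22 aged libraries. Coordinates are those of GENCODE M21 on GRCm38, and promoters those of RefSeq on GRCm38.p6.

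Groups came from titles and descriptions. Genes passed filterByExpr with a minimum count of 10, libraries were scaled by TMM, and edgeR 4.0.16 (R 4.3.3) fitted a robust quasi-likelihood model with 4 groups of gate and sex, with Benjamini-Hochberg adjustment over all genes tested at 0.05. The aged minus young difference was an interaction contrast over 8 groups and 43 libraries. Summed CPM were compared by permutation tests with 100000 resamples in scipy 1.17.1. DESeq2 1.42.0 and limma 3.58.1 served as alternatives, beside other scalings and filters, sex terms, blocks, subsets of animals and leaving out each library. The fits were tested on simulated data. Precision is limited by the depth of 2.18 to 7.57 M counts per aged library.

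The members and gene lists were chosen with earlier results of these data known. Named genes were 16 fixed genes, the 6 largest called changes in each direction with at least 10 CPM in the higher gate and the same sign in both sexes, the 3 called members of smallest p of each list with 2 or more, and the called genes of both difference tests. Other list members in the text were chosen after their values were seen. The labels pair libraries of the same animal for 5 animals. Residuals of such pairs correlated at r = 0.0465 to 0.114 (median 0.0714) over 8447 genes, against a median of -0.0071 between animals, and 5 of 5 progenitor libraries were closest to the ISCs of their own animal. One animal is labelled 24 months for its ISCs and 23 for its progenitors. Paneth cell libraries, 69 in all, were not used here. Some genes that meet these rules are not reported here.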

Additional observations from a re-analysis of the deposited data

Results flagged for a closer look

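In 11 of 146 quantities tested, 1 aged progenitor library stood apart from the other 9 by a gap of over 0.466 of the group's range. Chance gives such a gap in about 1 of 20 groups when values are normally distributed. CPM were taken untransformed and some genes lay near 0, so that share need not hold here. Among 146 quantities some such gaps would come by chance alone. Female_5 was the library in 3 of the 11. Mki67 was 352.4 CPM there, against 205.3 to 263.3 CPM in the other progenitor libraries. In the same library Npc1l1 was at 56.6 CPM, below the 150.2 to 245.5 CPM of the others, and Ldha at 867.0 CPM, below 1837 to 2159 CPM. Male_1 was the library in 4. Lgr5 was 19.14 CPM there, against 0 to 7.492 CPM in the others, Hes1 49.26 CPM against 10.16 to 28.98 CPM, Fstl1 6.024 CPM against 0 to 2.53 CPM and Sgk1 10.71 CPM against 0.7526 to 5.605 CPM. Male_5 was the highest for Cd74 (627.1 CPM, against 164.2 to 400.6 CPM), Hmgcs1 (127.0 CPM, against 64.98 to 94.86 CPM) and Nkd1 (1.927 CPM, against 0 to 0.8031 CPM). Female_4 was the highest for Dclk1 (1.881 CPM, against 0 to 0.879 CPM).

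The difference between the gates itself differed between groups for 3 genes, by interaction contrasts in edgeR. The aged minus young difference was -1.389 for 5330417C22Rik (adjusted p = 0.00491) and -0.6404 for Ly6e (adjusted p = 0.0201) on the log2 scale. The male minus female difference was 2.3734 for Rap1gap (adjusted p = 0.025). The calls of Ly6e and Rap1gap were each lost in some of the other fits given above.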

How the results depend on the processing

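Of 4746 values of named genes under other settings, 4687 kept their direction and side of the threshold, 51 lost a call, 5 gained one and 3 changed sign. Hnf4a was -0.052 without scaling, and Ly6e was 0.190 with the animal as a fixed replicate block and 0.122 with the name ending as a term; none of these was called in either fit, and the cause was not tested. Counts of called genes were 2323 higher and 2463 lower with DESeq2, 2459 and 2248 with limma-voom, 2216 and 2278 with RLE size factors, 2499 and 2399 with no filter, and 1976 and 1817 without the animals of 26 and 27 months. Asking also for a 2-fold change gave 907 higher and 897 lower. The fixed animal block, which only the 5 animals with both gates inform, gave 1601 and 1289. The block as a random effect (correlation 0.114) gave 2506 and 2336. The title number as a replicate block gave 2158 and 1980. It names the same animal in both gates for Male_1, Male_2 and Male_3 only, with a median r of 0.0142 over 10 title pairs. The name ending as a term gave 1457 and 1173, and animals that gave 1 gate only gave 1795 and 1575, with fewer libraries. The fixed block also ended the calls of Mptx1, Ier2, Ier3 and Sgk1 (adjusted p = 0.104, 0.0502, 0.102 and 0.265), and it changed other named calls only where the text gives them, beside a call gained for Cd74 (adjusted p = 0.0254). Males alone had 1545 called genes without the animals of 26 and 27 months, against 2878 with them. Leaving these animals out took 3 of the 5 male progenitor libraries. The male minus female difference was called for 0 genes with limma-voom and without those animals. The mitochondrially encoded sum differed by -14548 CPM with library totals (adjusted p = 0.0399). Leaving out each library in turn gave 2108 to 2252 genes higher and 2081 to 2260 lower, 2380 to 2972 in males, 2125 to 2704 in females, 0 to 1 for the sex difference and 1 to 2 lower for the age difference. The sums then differed by 32048 to 36776 CPM for goblet, 747 to 896 for enteroendocrine, 1087 to 1445 for Paneth, 30.6 to 42.1 for stromal, 4.31 to 7.78 for tuft (adjusted p = 0.00764 without ISC Female_3), -41.0 to -1.59 for immune and -12996 to -7754 CPM for mitochondrial genes. Depth limits genes of low count: 163 list entries did not pass the filter.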
